A study of Homo sapiens with 40 samples.

Results

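The HOX genes encode homeodomain transcription factors and lie in 4 clusters, HOXA on chromosome 7, HOXB on chromosome 17, HOXC on chromosome 12 and HOXD on chromosome 2. Their members were taken by name and position: the 39 protein-coding HOX genes of GENCODE release 44, of 19689 protein-coding genes, and every CTCF and H3K27ac peak from 50 kb before to 50 kb after each cluster. These 4 windows, 922.7 kb in all, held 30 of the 51457 CTCF peaks and 0 of the 51489 H3K27ac peaks that the authors had listed. The peaks came from chromatin immunoprecipitation sequencing (ChIP-seq) of EndoC-βH3, a human pancreatic beta-cell line, in 2 states. The non-senescent cells received no 4-hydroxytamoxifen (4-OHT), and the senescent cells were given 4-OHT for 3 weeks, at a dose that the labels write as 1 mM and the study's methods in micromolar. The line was made with a tamoxifen-activated Cre recombinase (CreER) and with the immortalizing transgenes hTERT and SV40 large T antigen. The non-senescent cells express both transgenes, whereas in the senescent cells 4-OHT had activated CreER to excise them, so that treatment and loss of the transgenes cannot be told apart. The labels give the genotype of all samples as wild type. Each state had 3 libraries for H3K27ac, 3 for CTCF, 2 for H3K4me1 and 2 for the retinoblastoma protein Rb, and with an input library for each this gave 40 libraries. Every library came from this 1 cell line, and no source used here says whether replicates were separate cultures.

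HOX genes of a cluster are transcribed in 1 direction and are numbered by paralog group, from HOX13 at the upstream end of the array to HOX1 at its downstream end. During development they are switched on in sequence along the cluster, and their combined expression gives a cell its position along the body axis. In cells that do not use them they are usually held silent by Polycomb complexes. CTCF is a zinc-finger protein that stops the loop extrusion carried out by cohesin, and it does so in a manner that depends on the direction of its asymmetric motif, so that CTCF sites inside a HOX cluster can separate active from silent genes. H3K27ac marks active promoters and enhancers, and H3K4me1 marks enhancers.

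The sites at the centre of the results are printed first. Each cluster held a CTCF peak between the start of HOX9 and that of the next gene downstream, HOX8 or, in HOXA, HOX7, and these 4 peaks are named the middle sites here. The stretches below have 100 bases each, are read from hg38 on the strand of HOX transcription, and place the best match to the CTCF motif in capitals. None of the 4 motifs lay in an annotated exon.
HOXA9 to HOXA7, chr7:27161094-27161193, minus strand: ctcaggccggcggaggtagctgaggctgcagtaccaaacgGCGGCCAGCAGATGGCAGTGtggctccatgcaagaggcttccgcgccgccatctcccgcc
HOXB9 to HOXB8, chr17:48618702-48618801, minus strand: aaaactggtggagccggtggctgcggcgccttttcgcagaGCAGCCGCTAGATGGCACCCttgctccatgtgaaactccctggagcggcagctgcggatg
HOXC9 to HOXC8, chr12:54006078-54006177, plus strand: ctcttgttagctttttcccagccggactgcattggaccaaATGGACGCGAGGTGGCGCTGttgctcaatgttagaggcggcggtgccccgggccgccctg
HOXD9 to HOXD8, chr2:176127161-176127260, plus strand: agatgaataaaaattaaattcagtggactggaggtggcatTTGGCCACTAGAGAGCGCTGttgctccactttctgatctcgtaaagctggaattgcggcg
All 4 motifs, each the best match in its peak, read along HOX transcription, but those of HOXC and HOXD fell below the strictest score used later. Over their 20 bases, pairs of middle sites shared 11 to 13 bases, and over the 80 bases around them, aligned without gaps, 19 to 33.

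H3K27ac was examined first, to see which HOX genes carried the mark of an active promoter. None did. Of the 39 HOX genes, 0 had an H3K27ac peak within 2 kb of a protein-coding transcript start, whereas 13065 of all 19689 protein-coding genes, or 66.4%, had one. HOX promoters had a median of 74 CpG dinucleotides in the 1 kb around the canonical start, against 67 over all genes. The clusters differed, with medians of 85 in HOXA, 49 in HOXB, 61 in HOXC and 104 in HOXD. Of the 6432 genes whose CpG count lay within the middle range of the HOX genes, from 53.5 to 86.5, 5326 had an H3K27ac peak, which is 82.8%. The 0 of 39 therefore stood beside higher shares both over all genes and over genes of like CpG content. The table lists peaks over a threshold and pools both states, so a weaker signal at HOX promoters, or one in a small share of the cells, cannot be seen in it. The lowest mean among listed H3K27ac peaks was 6.97 normalized counts and the median was 118.7.

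The distance to the nearest H3K27ac peak differed between clusters. From HOXA, the closest peak lay 386.3 kb beyond the HOX13 end and 226.5 kb beyond the HOX1 end, so that the peak-free interval spanned 719.8 kb. HOXC sat in an interval of 421.8 kb, with the nearest peaks 200.2 kb and 104.4 kb away. HOXB sat in one of 353.5 kb, with peaks at 65.87 kb and 87.37 kb. HOXD had the shortest, 264.1 kb, with peaks at 88.07 kb and 77.81 kb. HOXA13, which patterns the distal limb, was the HOX gene farthest from H3K27ac, at 333.6 kb, and HOXB13, which is known from the prostate and hindgut, the nearest, at 65.87 kb.

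Long intervals without H3K27ac were also found elsewhere, and were set beside those of the HOX clusters. Counting intervals between consecutive H3K27ac peaks, 57 held at least 10 starts of protein-coding genes, the number in the HOXC and HOXD intervals. Ranked by the median CpG count of their promoters, HOXD (92), HOXA (76) and HOXC (64) held ranks 1 to 3, while HOXB held rank 8 with 42. The median over the 57 intervals was 16, and the highest value outside the HOX clusters was 55.5. In fixed tiles of 200 kb with 9 or more starts, of which there were 232, the median tile held 10 H3K27ac peaks, and 15 tiles (6.47%) held none.

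**Figure D1:**
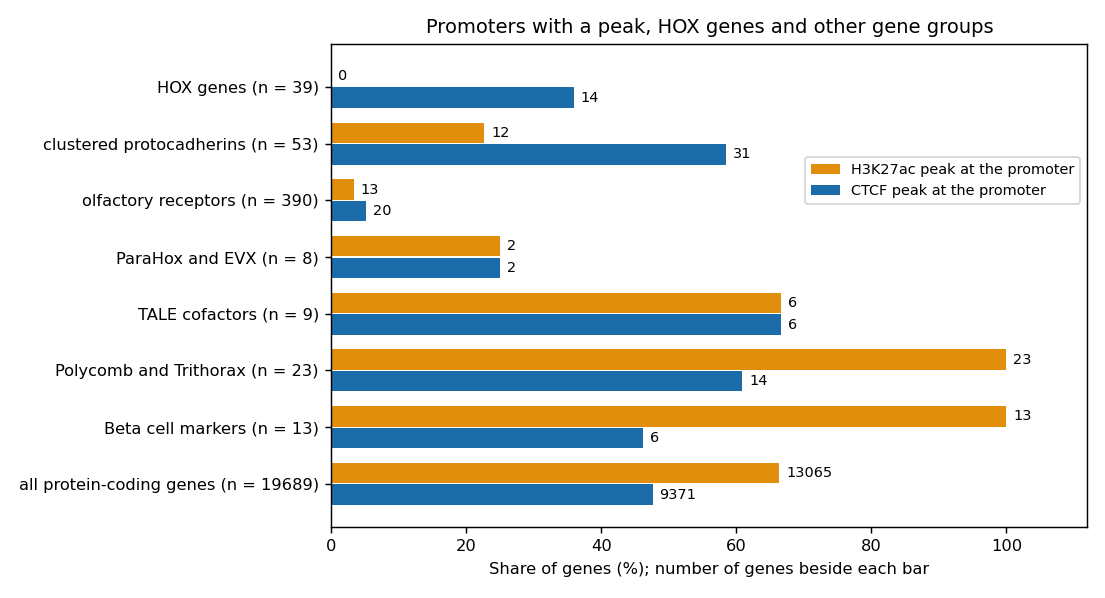
Share of genes with an H3K27ac peak (orange) or a CTCF peak (blue) within 2 kb of a protein-coding start, in percent, for HOX genes, 6 other gene groups and all protein-coding genes; the number of genes is beside each bar. HOX genes had H3K27ac at 0 and CTCF at 14 of 39 promoters, against 66.4% and 47.6% of all genes.

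Genes of other kinds that lie in clusters were compared with the HOX genes. Clustered protocadherins, cell-surface proteins whose promoters bind CTCF, had an H3K27ac peak at 12 of 53 promoters and a CTCF peak at 31. Olfactory receptor genes, which have few CpGs at their promoters (median 6), had H3K27ac at 13 of 390 and CTCF at 20. The H3K27ac share was 22.6% for the protocadherins, whose promoters had a median of 33 CpGs, and 3.33% for the olfactory receptors. Beside these stood 0 of the 39 HOX genes, but the groups differ in size and were not tested. The CTCF share of the HOX genes, 35.9%, lay between the 58.5% of the protocadherins and the 5.13% of the olfactory receptors. The share was 47.6% over all genes and 53.7% over genes with a CpG count in the middle range of the HOX genes.

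The lists of active enhancers that the authors made for each state were then searched, to see whether the clusters held enhancers in either. The windows held 0 of 14886 non-senescent and 0 of 13076 senescent enhancers, where a length equal to that of the windows would hold 4.45 and 3.91 at the density of the whole genome. For H3K27ac peaks the same density gave 15.4. The study's methods define enhancers by overlapping H3K27ac and H3K4me1 signals. With 0 H3K27ac peaks in the windows, both enhancer counts were nearly fixed in advance and are no separate result. Of the 2435 regions listed as bound by Rb in senescent over non-senescent cells the windows also held 0, but at 0.728 by density this count says nothing particular to the clusters. The Rb region closest to a cluster was 1044 kb from HOXC.

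Enhancers around the clusters were then compared between the lists. Within 500 kb of the cluster ends, the non-senescent list had 19 enhancers and the senescent list 12, and 9 in each list overlapped one of the other. These are 47.4% of the 19 and 75% of the 12, against 70.6% and 79.5% over the whole lists. The ratio of the counts, 1.58, stood beside one of 1.14 between the sizes of the whole lists. HOXA had 0 in both lists at this range, with the nearest non-senescent enhancer 507.2 kb and the nearest senescent one 508.9 kb from its HOX1 end. HOXB had 7 non-senescent and 3 senescent enhancers, and all 3 of the latter overlapped a non-senescent one. Of the 4 listed for the non-senescent state alone, a pair lay inside TTLL6, a tubulin-modifying enzyme gene on the HOXB13 side, at 76.17 kb and 79.92 kb from the cluster, with authors' mean H3K27ac counts of 86.19 and 67.62 over both states. HOXC had 7 in each list, of which 5 were shared. The enhancer nearest to it, 104.5 kb beyond HOXC4 and 27.5 kb from the start of SMUG1, a uracil-DNA glycosylase gene, was in the senescent list alone and had a mean H3K27ac count of 191.8. HOXD had 5 non-senescent and 2 senescent enhancers with 1 shared. Its closest was again in the senescent list alone, 133.7 kb beyond the HOX1 end and 55.95 kb from the start of MTX2, a mitochondrial import gene, with a mean of 122.8. The 10 enhancers of the non-senescent list alone had H3K27ac means of 55.15 to 308.0, the 3 of the senescent list alone 99.28 to 191.8 and the shared ones 97.7 to 3697. The lists carry no error, so presence in 1 list alone is given as a description with no test.

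**Figure D2:**
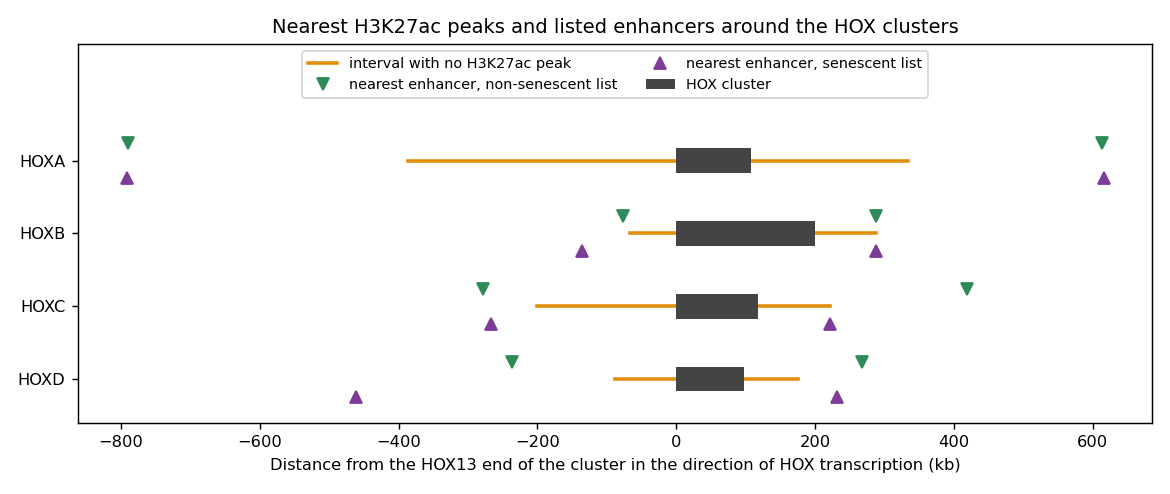
Each row is a HOX cluster (dark bar), drawn in kb from its HOX13 end in the direction of HOX transcription, with the interval free of H3K27ac peaks (orange line) and the nearest listed enhancer on either side in non-senescent (down triangles) and senescent (up triangles) cells. HOXA has the longest interval, 719.8 kb, and HOXD the shortest, 264.1 kb.

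CTCF, in contrast to H3K27ac, was found in all 4 clusters. Of the 30 peaks, 25 lay in the cluster bodies and 5 in the flanks. The bodies held 4.78 peaks per 100 kb and the whole windows 3.25, against 1.67 per 100 kb over the genome. Gene-dense regions have more CTCF peaks in general: a 200-kb tile with 9 or more gene starts had a median of 10, with 6.75 as the lower and 12.25 as the upper quartile. HOXB and HOXD had 11 peaks each, HOXA 6 and HOXC 2, although HOXC spans 117.2 kb and HOXD 98.19 kb. The windows of HOXA (207.1 kb), HOXC (217.2 kb) and HOXD (198.2 kb) were close to a tile in length, and that of HOXB was longer (300.2 kb). The HOXD count lay within the quartiles of those tiles, and the HOXA and HOXC counts lay below the lower quartile. HOXC thus had 1.71 peaks per 100 kb of its body, close to the genome's value, and HOXD had 8.15.

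The level of a CTCF peak is given as the authors' mean, a read count divided by the library's size factor and averaged over the 6 CTCF libraries of both states. No value per library is in the table as used here, so these means have no SD, and no difference in CTCF between the states is reported. The 30 peaks ranged from 5.92 to 357.2 with a median of 124.0, against 58.6 over all CTCF peaks. Of the 30, 9 stood above the upper quartile of all CTCF peaks, 176.0, and 7 below the lower, 20.19. The HOX peaks had a median GC content of 56.6%, against 46.4% over all CTCF peaks, and a median width of 904 bp, against 849 bp. A CTCF peak overlapped an H3K27ac peak in 30.4% of all cases. It did so in 0 of the 30 HOX cases, which follows from the absence of H3K27ac peaks in the windows.

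The strongest peak of each cluster body was at a recurring place in 3 of the 4 clusters. In HOXA it was the middle site between HOXA9 and HOXA7, with a mean of 343.7. In HOXB it was the middle site between HOXB9 and HOXB8, with 357.2, the highest of all 30. In HOXC it was the middle site between HOXC9 and HOXC8, with 230.2. In HOXD the middle site had 268.8, and the peak between HOXD13 and HOXD12, whose products pattern the digits and the genital tract, was higher with 337.8. The 4 middle sites stood at the 92.9th, 93.7th, 82.6th and 87.0th percentile of all CTCF peaks, in the order A, B, C, D. They lay 4.39, 7.61, 5.97 and 4.49 kb after the HOX9 start in that order, and 2.49 to 4.47 kb before the next start.

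In the flanks, the highest peaks belonged to the EVX2 side of HOXD. EVX2, a homeobox gene related to the Drosophila gene even-skipped, lies next to HOXD13 and is read in the opposite direction. A peak 4.51 kb before the HOXD13 start had a mean of 283.6, one at 6.29 kb, near the start of EVX2, had 167.5, and one at 12.57 kb, in an exon of EVX2, had 223.9. HOXA had 1 flank peak, 10.53 kb before HOXA13, with 127.1. HOXB had 1, 38.19 kb beyond HOXB1, with 138.9, and HOXC had none within 50 kb of either end.

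**Figure D3:**
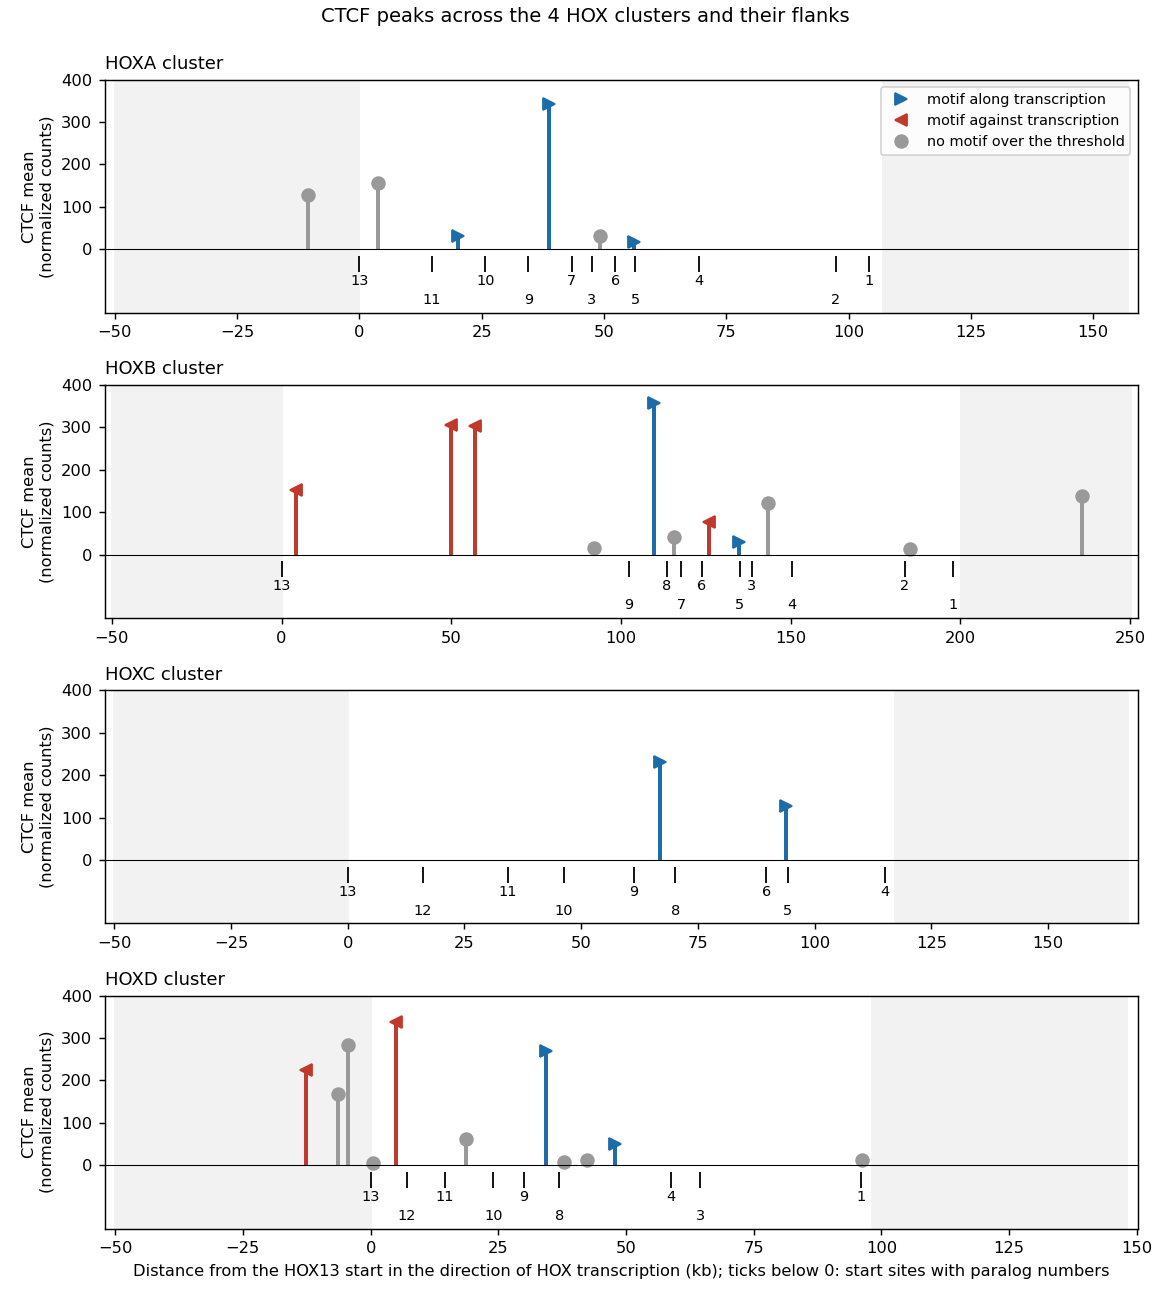
Authors' mean CTCF count (normalized counts, vertical axis) of each of the 30 peaks against its distance in kb from the HOX13 start in the direction of HOX transcription, 1 panel per cluster, with triangles for the direction of the motif, grey circles for peaks without one and grey shading for the flanks. Ticks under 0 are the gene starts with their paralog numbers. A tall peak pointing along transcription follows gene 9 in all 4 clusters, at 230.2 to 357.2.

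CTCF peaks at HOX promoters were counted beside the share over all promoters. The difference in share was not tested, and neighbouring genes such as HOXB7 and HOXB8 can share a peak. A CTCF peak was found within 2 kb of a start in 14 of the 39 genes (35.9%), against 47.6% of all genes: 5 of 10 in HOXB, 5 of 9 in HOXD, 3 of 11 in HOXA and 1 of 9 in HOXC. The 14 peaks at promoters had a median mean of 29.6, with a range of 5.92 to 337.8, and the 16 elsewhere one of 161.7. The 2 lowest of all 30 were in exons of HOXD13 (5.92) and of HOXD8 (6.58), with a GC content of 75.2% and 77.3%. For HOXA3, HOXD3 and other genes with long alternative transcripts, the start concerned can lie beside a neighbouring HOX gene.

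By paralog group, all 3 HOX5 genes had a CTCF peak at the promoter, and 0 of the 4 HOX4 and 0 of the 4 HOX9 genes did. HOXA5 had a peak with a mean of 17.66, HOXB5 one of 28.62 and HOXC5 one of 128.0. In each the motif lay a short way before the canonical start and read along transcription: 231 to 250 bases before it in HOXA5, 258 to 277 in HOXB5 and 293 to 312 in HOXC5. These sites are printed because the same paralog in 3 clusters held one at nearly the same place, and the capitals mark the 12-base core of the motif, positions 5 to 16.
HOXA5, chr7:27143912-27143931, minus strand: gcctCCAGCGGGTGGCgctc
HOXB5, chr17:48594037-48594056, minus strand: gtcgCCGGGAGGTGGCgcgc
HOXC5, chr12:54032738-54032757, plus strand: atagGCACCAGGTGTCgctg
The HOX5 group was singled out after its values were seen.

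To read the direction of the sites, a CTCF motif of 20 bases was learned from all CTCF peaks, starting from CCNNNAGNNGGC on either strand. Its core came out as CCACNAGGGGGC, where letters are those in at least 50% of the sites and N is any base. A peak was counted as holding the motif when its best match passed the score that 5% of regions shifted by 10 kb passed, 12.02 bits. By this count 15 of the 30 HOX peaks, or 50.0%, held a motif, against 58.6% of all CTCF peaks. A peak without it is one whose best match to this learned matrix fell below that score. The study's methods state that CTCF peaks were kept only where a CTCF motif was found, by another matrix and cutoff. A peak counted here as without a motif can therefore hold one by that filter. Peaks with the motif had a median mean of 223.9 and peaks without it 41.06. Across the 30 peaks, motif score and level had a Spearman correlation of 0.51 and a Pearson correlation of 0.53. Across all 51457 peaks these were 0.50 and 0.18. The points share libraries and base composition, and the correlations are given as a description. Among peaks without a motif at this threshold, the one 4.51 kb before HOXD13 had the highest mean, 283.6.

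**Figure D4:**
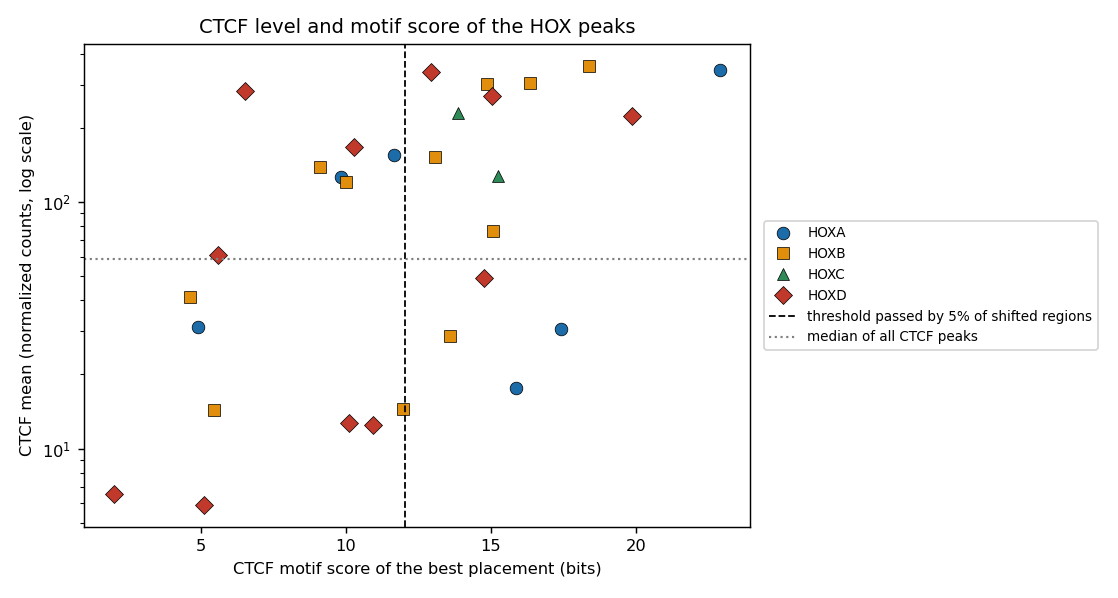
Authors' mean CTCF count (normalized counts, log axis) against the score of the best motif match in bits for the 30 HOX peaks, by cluster. The dashed line is the score of 12.02 passed by 5% of shifted regions and the dotted line the median of all CTCF peaks, 58.6. Most peaks to the right of the dashed line lie above the dotted one, and the HOXA9 to HOXA7 site has the highest score, 22.9.

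The direction of the motif was compared between the 2 sides of the HOX9 start. Over the 4 clusters together, upstream of the HOX9 start, on the HOX13 side, 5 of the 6 sites read against HOX transcription and 1 along it. Downstream of it, on the HOX1 side, 8 of the 9 read along transcription and 1 against. Sites of opposite direction on the 2 sides were found in HOXB, with 3 against on the HOX13 side and 2 along and 1 against on the other, and in HOXD, with 2 against and then 2 along. HOXA had no site against transcription, with 1 along on the HOX13 side and 2 along on the HOX1 side, and HOXC had 2 along on the HOX1 side and none on the other. With the stricter score that 1% of shifted regions passed, 8 sites were left, 2 against and 1 along on the HOX13 side, and 1 against and 4 along on the HOX1 side. That score was 15.05 bits, and the middle sites of HOXC (13.85) and HOXD (15.03) fell below it, while those of HOXA and HOXB passed. With the looser score that 10% of shifted regions passed, the HOX13 side had 7 against and 1 along. The HOX1 side then had 1 against and 9 along. At that looser score HOXA also had 1 site against transcription, on the HOX13 side. The HOX9 start was chosen as the dividing point after the sites had been mapped.

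The 5 sites read against transcription on the HOX13 side had means of 153.0 to 337.8. All but the lowest lay above the upper quartile of all CTCF peaks, 176.0. They are printed, on the strand on which the motif reads, because their direction is opposite to that of the middle sites, and the capitals mark the same core. In the gap of the HOXB cluster that separates HOXB13 from HOXB9, where no other HOX gene has its canonical start, 2 such peaks had means of 305.1 and 302.4. A further one at the HOXB13 and PRAC2 exons had 153.0. The HOXD13 to HOXD12 site and the EVX2 site completed the 5, and the EVX2 peak held a second match, of 14.2 bits beside 19.9, in the same direction.
HOXB13 to HOXB9, first, chr17:48678596-48678615, plus strand: gcggCCGGCAGGGGTCagtg
HOXB13 to HOXB9, second, chr17:48671803-48671822, plus strand: acagACACTAGAGGGTgctc
HOXB13 and PRAC2, chr17:48724687-48724706, plus strand: tctgTCGGAAGGGGGCgccc
HOXD13 to HOXD12, chr2:176097755-176097774, minus strand: atgcCCAGGAGATGGCgagc
EVX2, chr2:176079988-176080007, minus strand: gctgCCGCCAGGGGGCgccc
EVX2, second match, chr2:176080080-176080099, minus strand: gccaCCGCCAGGGGGCcgcg
The exceptions on either side were both of modest level. The site along transcription on the HOX13 side, between HOXA11 and HOXA10, lay in exons of HOXA10 and of the readthrough gene ENSG00000257184 and had a mean of 30.48. The site against transcription on the HOX1 side stood 2.26 kb from the HOXB6 start and had 76.08.
HOXA11 to HOXA10, chr7:27179902-27179921, minus strand: gccgCCACGAGATGGCgcac
HOXB6, chr17:48602749-48602768, plus strand: acggACGGTAGATGGCagca

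The bases that follow the motif were also alike among the middle sites, which was seen once the stretches had been aligned and was then counted. The 10 bases after the HOXB site, ttgctccatg, were matched at 9 positions by the HOXA site, at 9 by the HOXC site and at 8 by the HOXD site. Of the 15 HOX sites, 1 further one matched at 8 or more, that between HOXD13 and HOXD12, which reads against transcription, and the remaining 10 matched at 2 to 4. Among all 30133 CTCF sites with a motif and enough sequence in the peak, 108 (0.358%) matched at 8 or more positions. The 30 bases of motif and following sequence are given for the site that was not a middle site.
HOXD13 to HOXD12, 30 bases: atgcCCAGGAGATGGCgagcgcgctccatg

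Other protein-coding genes in the windows had no H3K27ac peak either. They were EVX2, the prostate-expressed genes PRAC1 and PRAC2 beside HOXB13, and the readthrough genes ENSG00000257184 in HOXA and ENSG00000273049 in HOXC. A CTCF peak was at the promoter of 4 of these 5, with ENSG00000273049 as the exception. EVX1, which begins in the HOXA window and ends beyond it, had neither mark at its promoter. PRAC1 and PRAC2 share the peak of 153.0 with the HOXB13 exon.

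The genes with which HOX proteins act were described from fixed lists. Of the 9 genes for TALE homeodomain proteins, which bind DNA together with HOX proteins, 6 (66.7%) had H3K27ac at the promoter, close to the 66.4% over all genes, among them MEIS2 (mean 6519) and PKNOX1 (1928). Enhancers nearest to TALE genes numbered 27 in the non-senescent and 16 in the senescent list, with 8 and 3 for MEIS2 and 7 and 3 for MEIS1. Over all genes the lists held 14886 and 13076. Of the 8 ParaHox and EVX genes, the closest relatives of the HOX genes, 2 had H3K27ac, PDX1 (10149), a regulator of the pancreas and of insulin expression, and CDX2 (284.4), a regulator of the intestine.

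Regulators of the HOX clusters were set beside the share of 66.4% over all genes. All 23 genes of the Polycomb and Trithorax list, which keep HOX genes silent or active, had H3K27ac, with the highest means at KDM6B (6388), a demethylase of H3K27, PHC2 (4388) and RBBP4 (1719). All 11 of the CTCF and cohesin list had it, led by RAD21 (3172), STAG1 (2395) and MAZ (2358). Of 12 retinoic acid receptor and enzyme genes, whose signal induces HOX genes in the embryo, 7 (58.3%) had H3K27ac, below the share over all genes, with RXRA (3689), ALDH1A1 (2684) and RXRB (870.8) highest.

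The identity of the line was checked by H3K27ac at the promoters of marker genes. All 13 beta-cell markers had a peak, among them INS (mean 3078) and NKX2-2 (13803). Alpha-cell markers had one at 3 of 4, with none at the glucagon gene GCG, acinar markers at 1 of 4, duct markers at 1 of 3 and leukocyte markers at 1 of 3. Fibroblast markers had none at 5 and endothelial markers none at 3. Over all protein-coding genes 66.4% had a peak, and the 75% of the alpha-cell markers stood near that share. The lists are short, and no difference from the share over all genes was tested. The part of other cells in the HOX values was not tested. ChIP-seq averages over the cells of a sample, so a mark in a share of the cells and a weaker mark in all of them cannot be told apart.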

How the data were processed

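ChIP-seq was carried out on EndoC-βH3 cells. The study's methods state that the authors used Trim Galore for trimming and Bowtie2 for alignment to hg38. The authors obtained the CTCF peaks with MACS2 at q 0.01 and the histone mark peaks with HOMER, both relative to input, and the Rb regions with MACS2 at p 0.01 relative to the non-senescent libraries. Tool versions and the way replicates entered a peak list are not given in the sources used here. The authors' deposited DESeq2 tables give for each CTCF or H3K27ac peak a mean signal, in which each library's read counts were scaled by its size factor before averaging. They also hold the authors' own comparison of the states (log2 fold changes, errors, test statistics and p-values), which was not used. The region lists deposited for enhancers and Rb hold positions alone.

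No value per library was given, so no test was run, and depth per library is unknown. The mean counts summed to 19239499 over H3K27ac peaks and 6136424 over CTCF peaks. Scaling by size factors hides a shift shared by most peaks.

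Here, peaks and windows were overlapped by at least 1 bp in Python 3.11.15 (numpy 2.4.6, pandas 2.3.3, scipy 1.17.1). Starts were read as 0-based, and all 24 chromosome names matched hg38. Promoters were 2 kb on either side of each protein-coding transcript start. An enhancer was assigned to the nearest gene start. The CTCF matrix was refined in 5 rounds from 24683 seed matches, and 48447 shifted regions set its thresholds. The search was tested on simulated data with implanted sites. The genes and peaks named were, by rule, the strongest CTCF peak of each body and flank, other genes in the windows, and the 3 genes of each list with the highest H3K27ac, of which 1 is not reported here. Members and lists were chosen with earlier results of these data known, and the protocadherin and olfactory receptor groups, the tiles and the 500 kb range after seeing the data. Alternatives were other windows, minimum means, overlaps, promoter definitions and motif thresholds.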

Additional observations from a re-analysis of the deposited data

How the results depend on the processing

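No paired analysis was possible because the results come from no test and the tables hold no values per library, and leaving out each replicate could not be run for the same reason. The count of 0 H3K27ac peaks held for the bodies alone and for 25 kb, but with 100 kb on either side the windows held 9 H3K27ac peaks, 3 non-senescent and 1 senescent enhancer. Of the 30 CTCF peaks, 18 had a mean of at least 50. HOX genes with CTCF at the promoter fell from 14 to 8 with promoters of 1 kb and to 4 with a minimum mean of 50. At the score passed by 1% of shifted regions, 8 peaks held a motif, with 2 sites against transcription on the HOX13 side and 4 along it on the HOX1 side. The shares over all genes and all CTCF peaks at these settings are not given. These lower counts therefore describe the HOX members alone. Enhancers near the clusters numbered 6 non-senescent and 4 senescent within 250 kb, and 47 and 39 within 1 Mb, ranges chosen after seeing the data. The ratio of non-senescent to senescent counts was 1.5 within 250 kb and 1.21 within 1 Mb, beside 1.14 for the whole lists. The H3K27ac counts at HOX promoters, the Rb count and the 9 shared enhancers were the same under every alternative run for them. Without per-library counts, the depth behind a weak peak or a missing one is unknown.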
